A study of Mus musculus with 6 samples.

Results

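Olfr151 and Olfr160 are the mouse genes of the odorant receptors M71 and M72. Both are class II and lie next to each other on chromosome 9. They were taken by symbol, and both were found among the 1106 odorant receptor symbols and 53686 gene symbols of the count table. The samples were 6 poly-A RNA libraries of dissected main olfactory epithelium, the sheet of nasal tissue in which olfactory sensory neurons sit. All came from C57BL/6J mice: 3 were wild-type and 3 were hemizygous for 5x21-OR1A1, a transgene for the human odorant receptor OR1A1. The labels give no age and do not describe the construct. The series title concerns how a neuron chooses its receptor when a receptor transgene is highly represented. Library totals ran from 27506217 to 35804712 counts. The labels call the libraries replicates without saying which animals they came from. The p-values thus reflect only how far these libraries varied, which may be technical.

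Odorant receptors are G protein-coupled receptors of the neuron's cilia, and a mature olfactory neuron expresses a single receptor gene from a single allele. Intact M71 and M72 receptors are both known to respond to acetophenone. Their neurons lie in the dorsal zone of the epithelium and send axons to separate glomeruli in the dorsal bulb. Transgenes of the 5x21 kind are known to be built on sequence of the M71 gene, with copies of a short enhancer element placed before it. A gene-level count under the symbol Olfr151 therefore cannot be divided between the endogenous gene and the construct, and the origin of these reads was not tested.

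The genes are near copies that differ at a point that changes the protein. On GRCm38, Olfr151 (ENSMUSG00000110526.2) spans 37729977 to 37731104 of chromosome 9 and Olfr160 (ENSMUSG00000061165.9) spans 37708964 to 37716250, both on the minus strand and 13.7 kb apart. GENCODE M21 annotates Olfr160 as protein coding and Olfr151 as a polymorphic pseudogene, a gene that is disrupted in the reference strain and intact in others. The coding stretches, of 929 bases in Olfr151 and 930 in Olfr160, aligned with 96.7% identical columns, 30 substitutions and 1 gap. That gap is shown first because it shifts the reading frame of the reference Olfr151. The capitals mark the run of G whose length differs, in chr9:37730217-37730264 and chr9:37711512-37711560, each written 5′ to 3′ on the minus strand:
Olfr151: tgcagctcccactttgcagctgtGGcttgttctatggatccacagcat
Olfr160: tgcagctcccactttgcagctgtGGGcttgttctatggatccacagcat
Read from its start codon, Olfr160 has its first stop at codon 310. The reference Olfr151 meets its first stop at codon 259, after the gap at base 741 of the Olfr160 coding stretch. The reference strain is the strain given for all mice of the series. Their endogenous Olfr151 would thus carry the same gap and not encode a full receptor. The alleles of these mice were not read.

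The next pair of sequences shows where the genes differ most, since such places allow a read to be told apart. It covers bases 67 to 126 of both coding stretches, at chr9:37730856-37730915 and chr9:37712152-37712211, and capitals mark the 8 differing bases among 60:
Olfr151: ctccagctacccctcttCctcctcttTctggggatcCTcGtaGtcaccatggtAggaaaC
Olfr160: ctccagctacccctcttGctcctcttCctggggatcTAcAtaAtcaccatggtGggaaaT
By contrast, the longest run without a difference was 177 bases, at bases 260 to 436 of both coding stretches, and is longer than a read of 100 bases. It lies at chr9:37730546-37730722 in Olfr151 and chr9:37711842-37712018 in Olfr160:
Shared run: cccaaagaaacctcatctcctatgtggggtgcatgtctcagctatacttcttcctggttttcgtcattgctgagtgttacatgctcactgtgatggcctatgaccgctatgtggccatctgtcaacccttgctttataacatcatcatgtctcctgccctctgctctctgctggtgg

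How alike the genes are over the length of a read was measured on all windows of 100 bases of the longest GENCODE M21 transcripts. The assignment of reads was not simulated, and a window that differs from the partner still matches its own gene without an edit. Of 1029 windows of the Olfr151 transcript, 125 (12.1%) were found unchanged in the Olfr160 transcript and 543 (52.8%) came within 2 edits of it. The other 486 windows differed by more, up to 44 edits, most of all in the 123 bases before the coding stretch. Of 3393 windows of the longer Olfr160 transcript, 125 (3.68%) were found unchanged in Olfr151 and 544 (16.0%) came within 2 edits of it. No window of either gene was found unchanged in a transcript of any further gene, and 0 windows of Olfr151 came within 2 edits of another receptor. How the authors' counting treated reads that match both genes is not known from the labels.

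**Figure D1:**
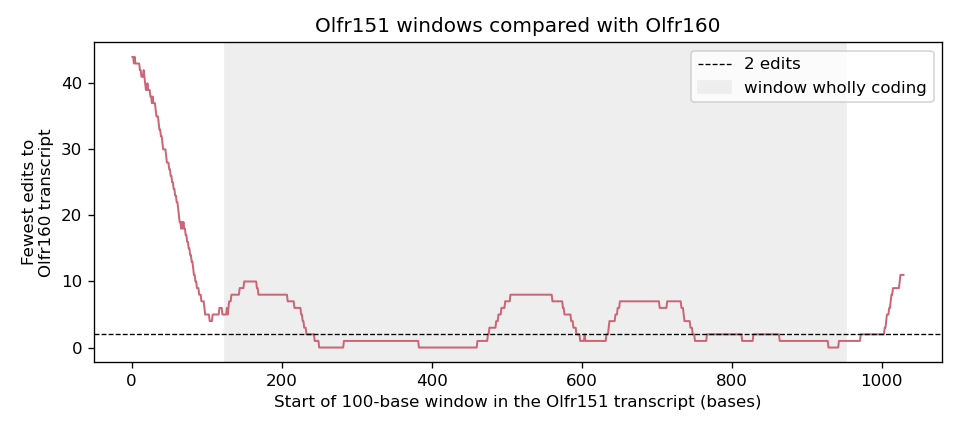
The fewest edits needed to place each 100-base window of the Olfr151 transcript in the Olfr160 transcript (y axis) against the window's start in bases (x axis), with windows wholly within the coding stretch shaded and 2 edits dashed. Of the 1029 windows, 543 lie at or below the dashed line, and the windows that start before the coding stretch rise to 44 edits.

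Olfr151, frameshifted in the reference genome of the mice's strain, was nearly silent in wild-type tissue and was detected in every transgenic library. It had 3, 0 and 2 counts in wild-type libraries 1 to 3, and 205, 294 and 217 counts in transgenic libraries 1 to 3. As CPM, counts relative to TMM-scaled library totals, the values were 0.0953, 0 and 0.0692 against 5.59, 10.1 and 7.99. All transgenic libraries lay above all wild-type libraries, and the library without a read allows a level of up to 0.0824 CPM by counting error (3 counts). The log2 fold change was 7.14 (SE 0.51, edgeR quasi-likelihood test, Benjamini-Hochberg adjusted p = 0.00121 over 19267 genes). By summed counts, 716 against 5, the gene was 149-fold higher at equal depth, with an exact 95% interval of 63.6 to 461 that covers counting error only. Over all genes tested, 0.519% were called higher and 11.4% had every transgenic library above every wild-type library.

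No other gene tested had so large a rise in the edgeR fit. The next was 2310003L06Rik, at 4.90 on the log2 scale, named here after its value was seen. The rank of Olfr151 was lower than first without a low-count filter and in DESeq2, where it was the third, and without each of wild-type libraries 1, 2 and 3 and transgenic library 2, where it ran from 2 to 4.

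Olfr160 moved the other way. It had 665, 905 and 495 counts in wild-type libraries 1 to 3 and 311, 205 and 149 in transgenic libraries 1 to 3, or 21.1, 24.9 and 17.1 CPM against 8.48, 7.03 and 5.49 CPM. The groups did not overlap, and every transgenic library lay below every wild-type library. Mean levels were 21.0 ± 3.86 CPM without and 6.999 ± 1.49 CPM with the transgene (SD, 3 libraries each). The log2 fold change was -1.58 (SE 0.19, edgeR adjusted p = 0.00614). Over all genes tested, 2.20% were called lower and 12.5% had every transgenic library below every wild-type library. In bulk tissue, fewer neurons that express a receptor and less of its RNA per neuron cannot be told apart.

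**Figure D2:**
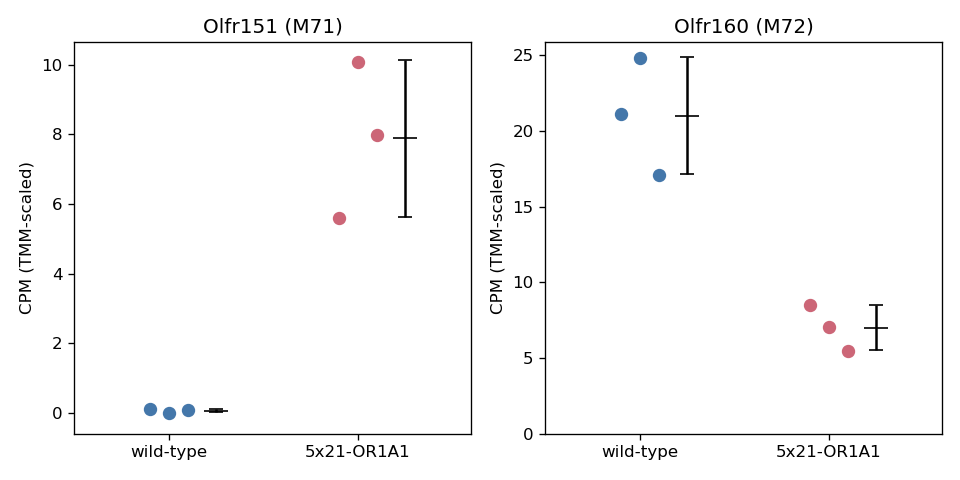
CPM (y axis, linear, a separate scale in each panel) of Olfr151 and Olfr160 in the wild-type (blue) and transgenic (red) libraries, 1 point per library, with the mean and SD of 3 libraries in black. Olfr151 sits at 0 to 0.0953 CPM in wild-type and 5.59 to 10.1 CPM in transgenic libraries, while Olfr160 falls from a mean of 21.0 to 6.999 CPM.

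The opposite changes brought the pair to like read numbers in transgenic tissue. Olfr151 made up 5 of 2070 counts of the pair in wild-type libraries, or 0.242% (exact 95% interval 0.0785% to 0.563%). In the transgenic libraries it made up 716 of 1381 counts, or 51.8% (49.2% to 54.5%). Both intervals pool the reads of 3 libraries and cover counting error only, not the spread between libraries. The log2 ratio of Olfr151 to Olfr160 counts, with 0.5 added to each, was -7.57, -10.8 and -7.63 in wild-type libraries 1 to 3 and -0.60, 0.52 and 0.54 in the transgenic ones. The difference was 8.83 (SE 1.14; two-sided exact permutation test, p = 0.1, the smallest p that 3 against 3 allows). The wild-type libraries held 2065 Olfr160 counts beside the 5 of Olfr151. Of Olfr160 windows, 3.68% were found unchanged in Olfr151. Of Olfr151 windows, 12.1% were found unchanged in Olfr160 and 52.8% came within 2 edits of it. Misassignment of reads between the genes was not tested in either direction or genotype.

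Per length, the order of the pair reversed between genotypes. Annotated exons cover 1128 bases of Olfr151 and 3492 bases of Olfr160, whose transcript model has a long untranslated end. Olfr160 stood at 6.02 ± 1.11 CPM per kilobase without the transgene and 2.004 ± 0.428 with it (SD, 3 libraries each). Olfr151 stood at 0.0486 ± 0.0436 CPM per kilobase in wild-type and 6.99 ± 1.996 in transgenic tissue. Among the 1105 receptors with an annotated length, Olfr151 ranked 979 in wild-type and 6 in transgenic tissue by mean CPM per kilobase, and Olfr160 ranked 37 and 88. By CPM without length, Olfr160 ranked 18 and 64 and Olfr151 1015 and 50 of 1106. These ranks rest on exon lengths that may differ from those the authors counted on. Reads from the construct, if counted under Olfr151, need not span its 1128 annotated bases. The transgenic level per kilobase and rank of Olfr151 thus need not be those of a full Olfr151 transcript.

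Both genes were also set against the total of odorant receptor reads, which itself was 0.373% to 0.510% of all counts in wild-type and 0.224% to 0.258% in transgenic libraries. Olfr160 took 0.577%, 0.496% and 0.402% of receptor counts in wild-type libraries 1 to 3 and 0.340%, 0.280% and 0.241% in transgenic libraries 1 to 3. The groups did not overlap, and the difference was -0.204 percentage points (SE 0.058; two-sided exact permutation test, p = 0.1). Olfr151 took at most 0.00260% in wild-type libraries and 0.224%, 0.402% and 0.352% in transgenic libraries. The difference was 0.325 percentage points (SE 0.053; two-sided exact permutation test, p = 0.1). The Olfr160 share was thus lower in each transgenic library than in any wild-type library, and the Olfr151 share higher.

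The fall of Olfr160 was next set beside the receptors of its own genomic cluster. Olfr160 and Olfr151 lie side by side at the low-coordinate end of a run of receptors on chromosome 9. The run goes from 37708964 to 40190134 (2.48 Mb) and holds 95 other receptors and 26 symbols named as pseudogenes. Of the 80 other receptors tested, 28 (35.0%) were called lower and 1, Olfr944 (2.46 on the log2 scale, named after its value was seen), higher. Over all 879 odorant receptors tested, 27.9% were called lower and 1.93% higher. The median log2 fold change was -0.9999 in the cluster, -0.77 over all receptors and 0.02 over all genes tested. The count of 28 was 7, 7 and 8 without transgenic libraries 1, 2 and 3. Scaling counts to mature neuron markers gave 26 lower and 11 higher, where 1.32% of all genes were called lower and 76.1% higher.

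Within that cluster Olfr160 stood at rank 21 from the lowest of 82 genes, and at rank 173 of 879 over all receptors. Olfr874, the next receptor on the far side of Olfr151, begins 14.001 kb beyond it and fell by 1.12 on the log2 scale (SE 0.22, edgeR adjusted p = 0.0389). Both tested neighbours of Olfr151 were thus called lower. Of the 80 other cluster receptors tested, Olfr874 included, 66 had values below 0 and 35.0% were called lower, so this direction was common there. The log2 ratio of Olfr160 to the summed counts of the 95 other cluster receptors was -4.26, -4.60 and -4.41 in wild-type libraries 1 to 3 and -4.61, -4.99 and -5.35 in the transgenic ones. The difference was -0.56 (SE 0.24, p = 0.1 by the two-sided exact permutation test). Wild-type library 2 and transgenic library 1 were almost level, so the groups were barely apart by this ratio.

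**Figure D3:**
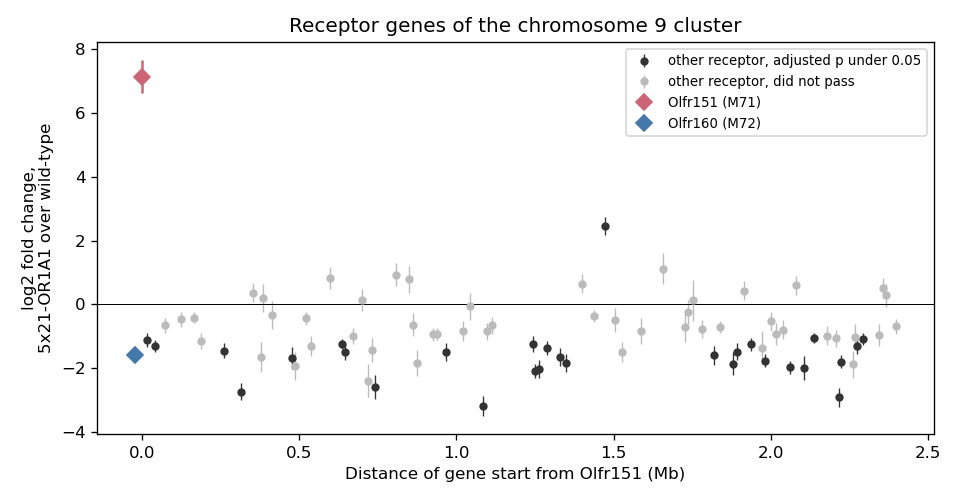
Log2 fold change of each tested receptor of the chromosome 9 cluster (y axis, bars show the SE) against the distance of its annotated start from that of Olfr151 in Mb (x axis), with receptors past an adjusted p of 0.05 in black and the others in grey. Olfr151 stands at 7.14 and its neighbour Olfr160 at -1.58, while 28 of the 80 other receptors are called lower and 1 higher.

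**Figure D4:**
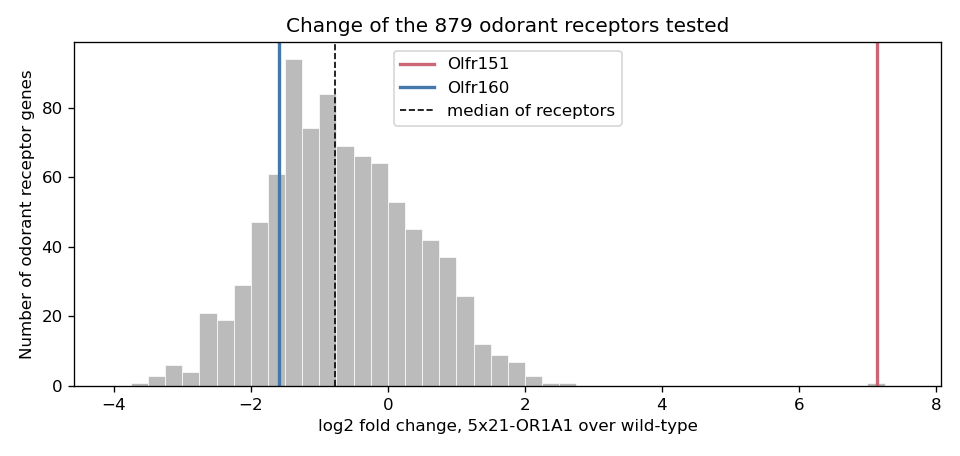
Number of odorant receptor genes (y axis) by log2 fold change (x axis, bins of equal width) for the 879 receptors tested, with Olfr151, Olfr160 and the median of -0.77 as vertical lines. Olfr160 lies within the main body of falling receptors and Olfr151 lies apart from every other receptor.

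Some markers of mature neurons were called lower, and some of earlier stages higher, in the libraries where Olfr160 was lower. Of 14 mature olfactory neuron markers tested, 5 passed as lower and 0 as higher, around a median log2 fold change of -0.66 and with all 14 values below 0. Of 13 immature neuron markers 4 were called higher and 0 lower (median 0.44), and of 14 progenitor markers 7 were higher and 0 lower (median 0.54). Over all genes tested, 2.20% were called lower and 0.519% higher. The summed level of the mature markers was 2.02% to 2.64% of counts in wild-type and 1.34% to 1.47% in transgenic libraries. On counts scaled to the mature markers, Olfr160 had a log2 fold change of -0.88 (SE 0.21, edgeR adjusted p = 0.00499), against -1.58 without this scaling. Olfr151 had 7.81 on that scale. The part of neuron content in the other results was not tested.

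Zone markers were read because the neurons of both receptors belong to the dorsal zone. Nqo1, an enzyme of dorsal olfactory neurons, fell by 1.18 on the log2 scale (SE 0.15, edgeR adjusted p = 0.00867). Acsm4, which marks supporting cells of the dorsal zone, stood at -0.45 and did not pass (edgeR adjusted p = 0.143). The ventral zone markers Ncam2, Nrp2 and Plxnc1 had values of 0.28, 0.41 and 0.43 that did not pass. Their part in the fall of Olfr160 was not tested.

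The genes of the machinery of receptor choice were read from a list. Of 20 genes for it, all tested, 1 was called lower and 0 higher, 19 did not pass, and the median log2 fold change was -0.03. Over all genes 2.20% were called lower and 0.519% higher, so in the main edgeR fit 1 call in this list is near the general share. At an unadjusted p under 0.05 in edgeR 3 were higher, as were 1441 of all 19267 genes. DESeq2 called 4 of the list lower and 1 higher, where 4.66% and 1.56% of all genes were called. The replicate block and the run without a low-count filter each called 2 lower, where 1.68% and 1.82% of all genes were. The gene called lower in the main edgeR fit was Ebf4, an olfactory transcription factor of the Ebf family (-0.74, SE 0.11, edgeR adjusted p = 0.0162). Lhx2, a homeodomain factor needed for class II receptor expression, had -0.17, and its cofactor gene Ldb1 had 0.03. Kdm1a, a histone demethylase that acts in the first choice of a receptor, had 0.16, and none of these 3 passed. When counts were scaled to mature neuron markers, 16 of the 20 were called higher and 0 lower, with the median of all genes moved to 0.71 and 76.1% of all genes called higher, so this count too is near the general share. The call of Ebf4 was not made without transgenic libraries 1 and 3, when the count of lower genes was 0.

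Among the other receptors studied through tagged or cloned genes, 9 were tested, and Olfr16, Olfr73 and Olfr545 fell by 1.61, 1.24 and 1.97 on the log2 scale. The remaining 6 did not pass. With 27.9% of all tested receptors called lower, this list is near the general share. Olfr16 had been listed with Mapt, Olfr43 and Olfr403 as a possible match of transgene sequence, and of these 4 genes none was called higher.

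The genes whose levels followed the members most closely over the 6 libraries were ranked by Pearson's r of log2 CPM. For Olfr151 these were Trib2 (r = 0.998), Cep70 (r = 0.997) and Smc2 (r = 0.996), with log2 fold changes of 0.44, 0.30 and 0.75, far under that of Olfr151. Among receptors they were Olfr830 (r = 0.995; log2 fold change 2.51), Olfr299 (r = 0.972; 1.69) and Olfr1295 (r = 0.970; 1.95). For Olfr160 they were Olfr584 (r = 0.997; log2 fold change -1.52), Olfr672 (r = 0.996; -1.15) and Tcte2 (r = 0.995; -0.68), and the third receptor in the order was Olfr655 (r = 0.995; -1.93). In all, 161 of 19266 genes exceeded an r of 0.95 with Olfr151 and 334 with Olfr160. The 6 points fall into 2 genotypes, so these values describe these libraries only.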

How the data were processed

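The deposited table holds raw counts per gene symbol, which the authors made without normalization. Per the labels' protocols, libraries were nonstranded, poly-A selected and read as single-end 100-bp reads. The submitters' processing notes name TopHat2 2.1.1, HTSeq 0.9.1 and GRCm38.p5. Settings and annotation are not given in the sources used. Reads of genes that overlap on opposite strands cannot be told apart.

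The main test was run in edgeR 4.0.16 (R 4.3.3) with TMM scaling, the default filter by group (minimum count 10, total 15) and the quasi-likelihood test. Benjamini-Hochberg adjustment ran over 19267 genes, with calls at an adjusted p under 0.05. The SE of a fold change is its size over the square root of F. The fit was checked on simulated data whose planted changes were all smaller than that of Olfr151. The check does not cover a rise of that size. Shares and ratios had two-sided exact permutation tests. Alternatives used DESeq2 1.42.0, limma 3.58.1, other scalings and filters, the replicate block and each library left out. Coordinates, exon lengths and sequences come from GENCODE M21 (GRCm38).

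Named genes are the members, their tested receptor neighbours, the studied receptors and possible transgene matches, called receptor choice genes, and the 3 genes and 3 receptors most correlated with each member (log2 CPM, prior count 2). Members and lists were chosen with earlier results of these data known.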

Additional observations from a re-analysis of the deposited data

How the results depend on the processing

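Both member calls kept their direction and an adjusted p under 0.05 in every alternative run. Olfr151 ranged from 6.51 without wild-type library 2 to 7.82 without wild-type library 1, and was 7.25 with a prior count of 0. Olfr160 ranged from -1.75 without transgenic library 1 to -0.88 under scaling to mature neuron markers. The ratios and shares of the members kept their direction in all alternatives, and their designs cannot reach p under 0.05. The ratio of Olfr160 to its cluster ranged from -0.75 to -0.38 with 1 library left out. Same-numbered libraries were not paired by their deviations (r of -0.33, 0.07 and -0.17). With the replicate block Olfr151 was 7.11 and Olfr160 -1.59, the cluster count fell to 18 lower, and 2 receptor choice genes were lower. Leaving out 1 library gave 7 to 36 cluster receptors lower and 0 to 2 choice genes lower. The cluster count was 42 lower in DESeq2 and 38 lower without a low-count filter. The share over all receptors was not counted in these alternatives. Scaling to mature neuron markers gave 11 cluster receptors higher, 16 choice genes higher and 0 lower. Choice genes lower numbered 2 without a filter and 4 in DESeq2, which called 1 higher. Of all genes, 1.82% were lower without a filter, and 4.66% were lower and 1.56% higher in DESeq2. Over all genes, 100 were higher and 423 lower in edgeR, 299 and 895 in DESeq2, 54 and 323 with the replicate block, 14657 and 255 scaled to mature neuron markers, and 14 to 23 and 136 to 152 without 1 transgenic library. Why was not tested. Depth limits the precision of the Olfr151 fold change, which rests on 5 wild-type counts in all.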

Other observations

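Of the 26 symbols of the cluster named as pseudogenes, 3 had enough counts to be tested. Olfr947-ps1 had 18, 15 and 18 counts in wild-type libraries 1 to 3 and 41, 54 and 44 in transgenic libraries 1 to 3. GENCODE M21 annotates it as a polymorphic pseudogene, as it does Olfr151 and others of the cluster whose counts were too low to test. Olfr947-ps1 rose by 1.51 on the log2 scale (SE 0.31, edgeR adjusted p = 0.0449), and the groups did not overlap. Over all genes tested, 0.519% were called higher and 11.4% had every transgenic library above every wild-type library. Olfr896-ps1 had a value of -1.30 and Olfr911-ps1 of 0.14, with edgeR adjusted p of 0.1002 and 0.882. Despite their names, GENCODE M21 annotates both Olfr896-ps1 and Olfr911-ps1 as protein coding. Olfr947-ps1 was named after its value was seen.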
